A study of Mus musculus with 6 samples.

Results

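The Wnt ligands, their Frizzled receptors and the secreted antagonists of the Sfrp and Dickkopf families were compared between mammary tumors of control and DMHCA-treated mice. The members were all genes whose symbols are Wnt, Fzd, Sfrp or Dkk followed by a number (and a or b for some Wnt genes), which gave 37 of the 55385 genes measured. They were 19 Wnt ligands, 10 Frizzled receptors, 4 Sfrp antagonists and 4 Dickkopf antagonists. All mice were female NeuT/ATTAC animals, which carry a constitutively active rat ErbB2 gene driven by the mouse mammary tumor virus promoter and an FKBPv-caspase-8 fusion driven by the FABP4 promoter, the latter meant for fat cells. The dimerizer AP20187, which activates the caspase and ablates part of the mammary fat, was given by injection (0.4 mg/kg) starting at 6 weeks. DMHCA, a sterol-like compound that activates the LXR nuclear receptors, was mixed into the food of the treated mice at 0.05% (100 mg/kg) from 8 weeks of age. The label of the controls can be read as AP20187 with vehicle or as vehicle alone. The labels call the tissue mammary gland fibrosis, while the study's text describes tumors, and in each library the luminal keratin genes Krt8 and Krt18 were high (624 to 1221 TPM for Krt8), with the fibroblast collagen gene Col1a1 at 39.9 to 162 TPM.

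Wnt proteins are secreted lipid-modified ligands that bind Frizzled receptors. With the coreceptors Lrp5 or Lrp6, a bound Frizzled keeps β-catenin from being degraded, and β-catenin then acts with TCF and LEF factors on target genes such as Axin2. Other Wnts, among them Wnt5a and Wnt11, mostly act through Frizzled and Ror receptors without β-catenin. Sfrp proteins bind Wnts outside the cell, and Dickkopf proteins such as Dkk1 act on the Lrp coreceptors. In the mammary gland, Wnt4 is made by luminal cells under progesterone, and Wnt1 and Wnt3 were found as genes that mouse mammary tumor virus activates by insertion.

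In all, 6 libraries were measured, 3 per group, with 46358654 to 63420620 expected counts each. DMHCA libraries 1 and 3 were nearly alike, with a biological coefficient of variation of 0.0326 against 0.374 to 0.573 in the other pairs of 1 group, and 18.2% of genes differing by a chi-square test against 82.0% to 87.0%. They were therefore summed and counted as 1 sample, so that n was 3 controls and 2 DMHCA samples, and the DMHCA samples are always given in the order libraries 1 and 3, then library 2. The study's text describes tumors from 3 control and 3 DMHCA-treated mice, so this count of 2 DMHCA samples departs from its account. Nothing in the labels says whether libraries 1 and 3 came from 1 mouse, and the p-values measure the spread between the samples as counted here. Normalized counts are read counts scaled by edgeR's TMM factors to a common library size. TPM (transcripts scaled to a fixed total per library) is corrected for gene length and is used where levels of different genes are compared.

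Of the 37 members, 27 passed the filter on low counts and were tested: 11 Wnt ligands, 10 Frizzled receptors, 4 Sfrp antagonists and 2 Dickkopf antagonists. By edgeR's quasi-likelihood test with adjustment over 19427 genes, 0 members had an adjusted p under 0.05, as did 0.0% of all genes tested, and the members' adjusted p ran from 0.644 to 0.999. At an unadjusted p under 0.05 there was 1 lower member, Sfrp5, and 1 higher member, Sfrp1. Across all genes tested 4.08% were lower and 3.53% higher at that level, 7.61% in either direction, so 1 of 27 each way is near the background. DESeq2 on the 5 samples and limma on log2 TPM also gave 0 members an adjusted p under 0.05. DESeq2 on the 6 libraries as separate samples gave 2, Wnt4 and Wnt10a, both lower. Of the 19328 genes that passed edgeR's filter and had an adjusted p in that fit, it called 2.81% lower and 1.39% higher. Wnt10a failed that filter and lies outside this share. No member is therefore described as risen or fallen, and the values below show how the samples lay.

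In normalized counts, controls and DMHCA samples were fully apart for 3 lower tested members, Wnt11, Sfrp5 and Dkk2, and for 1 higher tested member, Fzd6. Of all genes tested, 12.2% lay lower and 13.8% higher without overlap. On the TPM scale, which depends on all other transcripts in a library, Wnt11 and Dkk2 overlapped, and Sfrp5 was the 1 lower tested member without overlap, while Fzd4, Fzd6 and Sfrp1 lay higher, at a background of 6.97% lower and 20.3% higher. The stretches before the starts of Wnt11, Dkk2 and Sfrp5 are shown because these are the lower members without overlap among those tested. The RefSeq promoter table for GRCm38.p6 has no entry for Fzd6. Each stretch ends just before the annotated start and is printed 5′ to 3′ on the gene's strand, with capitals marking the TCF/LEF core CTTTGAT (read as ATCAAAG on the other strand) and the TATA motif TATAAA.
Wnt11, chr7:98834862-98835111, + strand: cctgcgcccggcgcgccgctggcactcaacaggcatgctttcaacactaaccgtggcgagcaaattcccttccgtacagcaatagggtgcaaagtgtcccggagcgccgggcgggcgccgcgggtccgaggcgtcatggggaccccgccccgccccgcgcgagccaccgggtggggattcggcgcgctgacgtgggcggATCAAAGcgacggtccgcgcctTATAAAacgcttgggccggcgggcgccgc
Dkk2, chr3:132085042-132085291, + strand: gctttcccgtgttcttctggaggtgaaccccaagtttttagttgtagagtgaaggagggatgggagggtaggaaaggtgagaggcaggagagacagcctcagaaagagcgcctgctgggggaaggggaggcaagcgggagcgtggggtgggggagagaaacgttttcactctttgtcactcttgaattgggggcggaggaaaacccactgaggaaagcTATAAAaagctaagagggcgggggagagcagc
Sfrp5, chr19:42202253-42202502, - strand: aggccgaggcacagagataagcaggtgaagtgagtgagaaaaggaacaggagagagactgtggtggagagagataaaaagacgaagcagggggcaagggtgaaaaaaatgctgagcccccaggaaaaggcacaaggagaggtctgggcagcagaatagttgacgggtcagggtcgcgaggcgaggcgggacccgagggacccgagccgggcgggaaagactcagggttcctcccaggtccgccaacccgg

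The promoter table held 28 windows for 25 of the 37 members, each from 250 bases before to 50 bases after a start. Of the 2 starts of Wnt11 in the table, the window of the 1 shown held the TCF/LEF core and TATAAA and the other held neither. In the window shown the TCF/LEF core lay 51 bases before the start on the minus strand and TATAAA 29 bases before it, and in Dkk2 TATAAA lay 32 bases before the start. The TCF/LEF core was in 2 of the 28 windows, those of 1 of 2 starts of Wnt11 and of 1 of 3 starts of Wnt5b, and in 3.73% of all 32851 windows, both strands searched. TATAAA was in 4 windows, of Wnt11, Dkk2, Dkk1 and Fzd1, against 13.6% of all windows. A direct repeat for LXR, GGTCA followed by any 5 bases and GGTCA again, was in 0 of the 28 windows and in 0.0761% of all windows. The windows of the members had a median of 68.7% G and C, and all windows 52.7%. These matches describe letters and are no evidence that a factor binds there.

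In the mouse genome (GRCm38), 4 pairs of Wnt genes lie next to each other with 0 annotated genes between them. They are Wnt1 and Wnt10b (chr15:98770712-98793837, 11706 bases apart), Wnt3 and Wnt9b (chr11:103727364-103817957, 24328 bases apart), Wnt3a and Wnt9a (chr11:59248033-59333552, 16175 bases apart) and Wnt6 and Wnt10a (chr1:74771892-74804179, 6193 bases apart). By TPM, Wnt9a was at 0.48 to 2.1 over the 6 libraries, while Wnt3a had 0 reads in each of the 6 libraries, which for a count of 0 allows up to 3 reads among the totals given above. Wnt10b was at 0.01 to 0.74 TPM and Wnt1 at 0 to 0.02 TPM, and in DMHCA library 2 they had 1 and 0 reads.

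The 10 members that were not tested had at most 41 reads in a library. Wnt10a had 9, 2 and 41 reads in controls 1, 2 and 3 and 0, 0 and 1 in DMHCA libraries 1, 2 and 3, and Wnt6 had 9, 1 and 20 reads against 0, 3 and 4. Wnt10a, a β-catenin ligand of skin and its appendages, was thus highest in control 3, and the DMHCA libraries lay below each control. Wnt3 had 13 reads in control 3 and 0 to 3 elsewhere, and Wnt9b had 1, 4 and 2 reads in the controls against 2, 6 and 9. Scaled, and with DMHCA libraries 1 and 3 summed, Wnt9b was the opposite case to Wnt10a, with 0.963, 3.8 and 2.16 against 5.52 and 6.07 normalized counts and both DMHCA samples above each control. Wnt1, Wnt8a, Wnt8b, Dkk1 and Dkk4 had between 0 and 4 reads in each library. Wnt1, Wnt3 and Wnt3a, the ligands most often used to switch on β-catenin in mammary cells, were therefore at or near 0 in both groups at this depth.

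Summed over all 19 ligands, Wnt transcripts reached 52.4, 14.8 and 42.9 TPM in controls 1, 2 and 3 and 15.6, 13.9 and 16.5 in DMHCA libraries 1, 2 and 3. Controls 1 and 3 stood above the rest, and control 2 lay among the DMHCA libraries. Wnt5b, Wnt5a and Wnt7b made up most of this sum, with Wnt5b at 37.2%, 23.2% and 50.8% of it in the controls and 37.7%, 15.9% and 40.4% in the DMHCA libraries. Frizzled transcripts summed to 140.2, 100.0 and 58.9 TPM in controls 1, 2 and 3 and 106, 207 and 99.8 in DMHCA libraries 1, 2 and 3, with the highest sum in DMHCA library 2 and the lowest in control 3. The Sfrp sum was 37.1, 30.2 and 49 TPM in controls 1, 2 and 3 and 49.4, 120.2 and 49.4 in DMHCA libraries 1, 2 and 3, again highest in DMHCA library 2. The Dickkopf sum was 8.07, 3.28 and 9.56 TPM in controls 1, 2 and 3 and 4.54, 3.02 and 4.49 in DMHCA libraries 1, 2 and 3, with Dkk3 at 70.9% to 85% of it. In whole tissue, fewer cells of a type and less RNA per cell cannot be told apart.

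**Figure D1:**
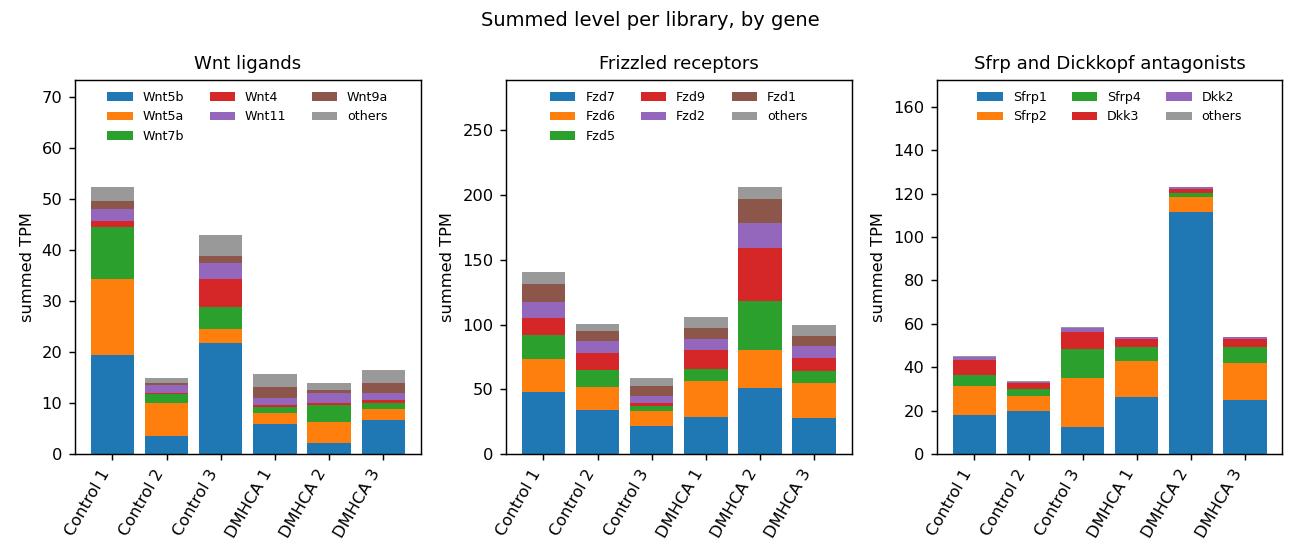
Stacked bars give the TPM of each gene in each of the 6 libraries, for Wnt ligands (left), Frizzled receptors (middle) and the Sfrp and Dickkopf antagonists together (right), with each axis starting at 0. Wnt sums were highest in controls 1 and 3 (52.4 and 42.9 TPM), and the Frizzled and antagonist sums were highest in DMHCA library 2, where Sfrp1 alone reached 111 TPM.

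Of the 11 Wnt ligands tested, 9 had a negative log2 fold change and 2 a positive value near 0, with a median of -1.12, while 52.0% of all genes tested were negative and their median was -0.03. The larger negative values came from Wnt4, Wnt5b, Wnt7a, Wnt5a, Wnt7b and Wnt11. Wnt2, Wnt2b, Wnt9a, Wnt10b and Wnt16 lay within 0.15 of 0. The samples of Wnt11 alone did not overlap.

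Wnt5b (ENSMUSG00000030170, chr6:119432531-119544347, - strand) was the most abundant ligand by TPM in 4 of the 6 libraries. It had 1634, 384 and 1964 normalized counts in controls 1, 2 and 3, and the DMHCA samples had 540.3 and 172. Controls 1 and 3 were high, and control 2 lay between the DMHCA samples, so the groups overlapped. The log2 fold change (± SE) was -1.89 ± 0.82, with an unadjusted p = 0.056 and an adjusted p = 0.644 in edgeR. Without DMHCA library 2 it was -1.25 (unadjusted p = 0.23, edgeR), and without control 2 it was -2.33 (unadjusted p = 0.00981, edgeR).

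Wnt5a (ENSMUSG00000021994, chr14:28504750-28527448, + strand), close to Wnt5b in sequence and best known for signalling without β-catenin, had 2725, 1637 and 621 normalized counts in controls 1, 2 and 3, and the DMHCA samples had 433 and 729. The order of the controls differed from that in Wnt5b, since control 3 was lowest and below DMHCA library 2. Its log2 fold change was -1.52 ± 0.64, with an unadjusted p = 0.051 and an adjusted p = 0.644 in edgeR. Without control 1 it was -0.96. Exons of Gm2670 overlap those of Wnt5a on the opposite strand, and since the strand setting of the counting is not given in the sources used here, reads of the pair cannot be separated.

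Wnt7b (ENSMUSG00000022382, chr15:85535437-85582473, - strand), an epithelial ligand that can signal through β-catenin, had 1203, 267 and 540.0 normalized counts in controls 1, 2 and 3, and the DMHCA samples had 141 and 364. Control 1 was higher than any other sample, and control 2 was below DMHCA library 2. This gave a log2 fold change of -1.41 ± 0.76, and -0.70 without control 1. It too has an overlapping gene on the opposite strand, AU022754. Wnt5a, Wnt5b and Wnt7b had been listed by the study as lower with DMHCA on these same libraries, so their direction here is not independent of that choice.

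Wnt4 (ENSMUSG00000036856, chr4:137277489-137299726, + strand) had the largest negative value of the tested members. It had 164, 54.1 and 899 normalized counts in controls 1, 2 and 3, and the DMHCA samples had 67.3 and 55.7, so control 3 stood far above the rest and control 2 lay below both DMHCA samples. Its log2 fold change was -2.59 ± 1.20 (adjusted p = 0.644 in edgeR), and -0.83 without control 3. In the same libraries the hormone-sensing luminal markers Esr1, Pgr, Prlr, Areg and Tnfsf11 summed to 33.3, 34.5 and 51.5 TPM in the controls and 22.5 to 30.2 in the DMHCA libraries, and 5 of the 5 had a negative log2 fold change, with the groups not overlapping for 3 (52.0% of all genes tested were negative, and 12.2% lay lower without overlap). Of these, Pgr, the progesterone receptor, was at 0.54, 0.03 and 1.54 TPM in the controls and at most 0.26 TPM in the DMHCA libraries, and its part in the level of Wnt4 was not tested.

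Wnt11 (ENSMUSG00000015957, chr7:98835112-98855195, + strand), a ligand of cell movement during development, had 131, 122 and 184 normalized counts in controls 1, 2 and 3, and the DMHCA samples had 69.3 and 64.8, and each control lay above both DMHCA samples. The means were 146 ± 33.3 (SD, n = 3) and 67 ± 3.18 (SD, n = 2). Its log2 fold change of -1.12 ± 0.51 ran from -1.23 to -0.92 with each library left out in turn, and its adjusted p was 0.644 in edgeR. In TPM the groups met, with 2.47, 1.4 and 3.12 TPM in the controls and 1.42, 1.91 and 1.4 in DMHCA libraries 1, 2 and 3. Gm8398 overlaps Wnt11 on the opposite strand.

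Wnt7a (ENSMUSG00000030093, chr6:91363981-91411363, - strand) was nearly confined to control 1 among these samples, with 78.9, 0.949 and 2.16 normalized counts in controls 1, 2 and 3, and the DMHCA samples had 2.51 and 15.2. Wnt7a had a log2 fold change of -1.68 ± 1.81, an error larger than the value itself. Control 1 was also the library with salivary gland transcripts: Amy1, Bpifa2, Chia1 and Dcpp1 together reached 8137, 16.2 and 118 TPM in controls 1, 2 and 3 and 32, 13.2 and 21.3 in DMHCA libraries 1, 2 and 3. Whether those cells carried Wnt7a was not tested.

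The other 5 tested ligands were low and showed no direction. Wnt9a had 191, 77.8 and 199 against 253 and 84 normalized counts, controls against DMHCA samples, and a log2 fold change of 0.11 ± 0.69. For Wnt2 the counts were 52, 39.9 and 128 against 97.4 and 34.4 (-0.14 ± 0.76), and for Wnt2b 53.9, 18 and 26 against 30.6 and 30.4 (-0.098 ± 0.66). Wnt10b, a ligand that promotes mammary growth and limits fat cell formation, had 12.5, 14.2 and 54.1 against 51.7 and 1.01 (0.0022 ± 1.24), and Wnt16 had 11.6, 13.3 and 35.7 against 20.1 and 17.2 (-0.11 ± 0.71). For Wnt10b the DMHCA samples were at opposite ends, near the highest control and below each control.

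**Figure D2:**
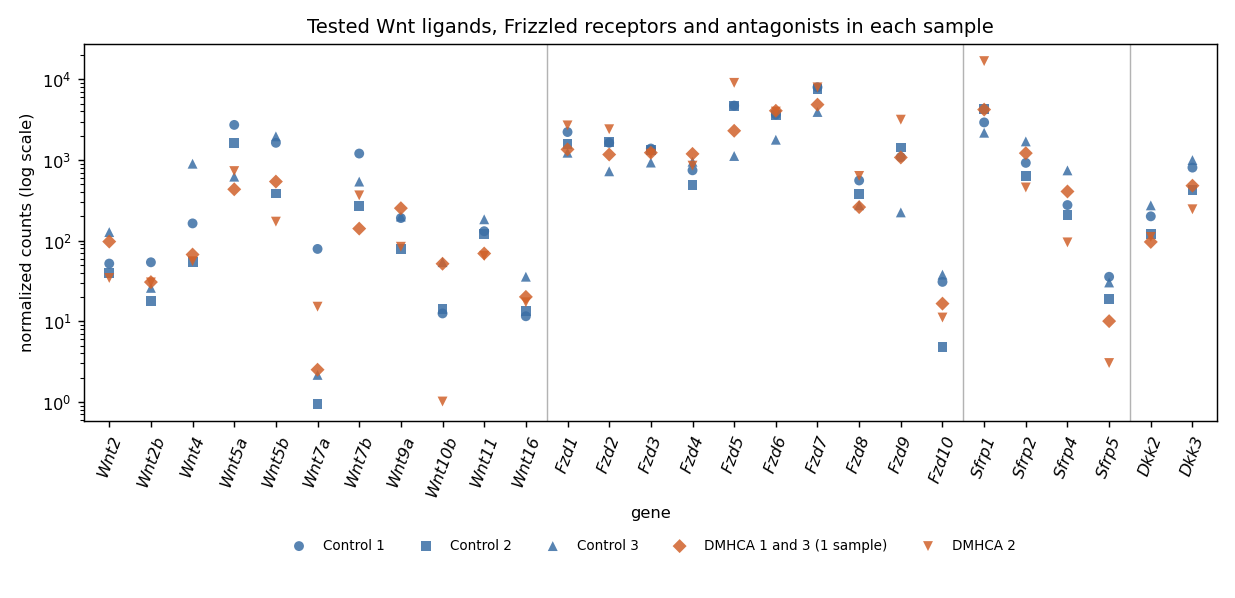
Each point is the normalized count of 1 gene in 1 sample on a log scale, with the 3 controls in blue and the 2 DMHCA samples in orange (DMHCA libraries 1 and 3 summed), for the 27 tested genes in the order Wnt, Fzd, Sfrp and Dkk. The orange points of Wnt11, Sfrp5 and Dkk2 lie below and those of Fzd6 above all blue points, and the other 23 genes overlap.

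All 10 Frizzled receptors were expressed highly enough to be tested. Of these, 8 had a positive log2 fold change, with a median of 0.34, against 48.0% of all genes tested. The count rested on DMHCA library 2, since without it 4 of the 10 were positive. Control 3 had the lowest count of 7 of the 10 receptors, and DMHCA library 2 the highest of 5.

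Fzd7 (ENSMUSG00000041075, chr1:59482424-59486955, + strand), a receptor of mammary progenitor and basal-like cells, was the most abundant Frizzled by TPM in each library, with 47.7, 33.8 and 21.9 TPM in the controls and 28.8, 50.7 and 27.8 in DMHCA libraries 1, 2 and 3. In normalized counts it had 7984, 7589 and 3939.9 against 4863 and 7959, and a log2 fold change of -0.021 ± 0.40, so the difference was far below its error. Fzd6 (ENSMUSG00000022297, chr15:39006034-39038188, + strand), a receptor of planar cell polarity, was next in 5 of the 6 libraries. It had 3670.2, 3586 and 1783 normalized counts in controls 1, 2 and 3, and the DMHCA samples had 4080.1 and 3985. Both DMHCA samples lay above each control, by a narrow margin over controls 1 and 2, and the log2 fold change of 0.42 ± 0.36 had an adjusted p = 0.745 in edgeR. Without control 3, the lowest sample, it was 0.15. Gm26704 overlaps it on the opposite strand.

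Fzd9 (ENSMUSG00000049551, chr5:135248938-135251230, - strand) had the largest positive value among the receptors, with 1088, 1430.0 and 224 normalized counts in controls 1, 2 and 3, and the DMHCA samples had 1076 and 3164. The control range held 1 of the DMHCA samples, and DMHCA library 2 was the high sample. Its log2 fold change of 1.21 ± 0.78 was 0.27 without DMHCA library 2 (adjusted p = 0.683 in edgeR with all samples). Fzd5 (ENSMUSG00000045005, chr1:64730558-64737751, - strand), a receptor for Wnt7 and Wnt5a class ligands, was likewise lowest in control 3 and highest in DMHCA library 2, with 4728, 4635 and 1121 against 2304 and 9052 normalized counts and a log2 fold change of 0.70 ± 0.75, which was -0.57 without DMHCA library 2. Gm38058 overlaps Fzd5 on the opposite strand.

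For the other 6 receptors the samples of the groups overlapped in normalized counts. Fzd1 had 2223, 1578 and 1230.3 against 1354 and 2687 normalized counts (0.27 ± 0.40) and Fzd2 1634, 1684 and 724 against 1169.5 and 2408 (0.41 ± 0.48). In both, DMHCA library 2 was the highest sample and the other DMHCA sample was within the controls. Fzd4, a receptor for Norrin as well as for Wnts and much used by endothelium, had 745, 491 and 951 against 1192 and 851 (0.49 ± 0.39), where the 2 DMHCA samples lay on either side of control 3. With each library left out in turn, the value of Fzd4 ran from 0.27 without control 2 to 0.75 without DMHCA library 2. The endothelial markers Pecam1, Cdh5, Kdr and Tek summed to 39.5, 26.7 and 45.2 TPM in the controls and 44.2 to 50.7 in the DMHCA libraries, and their part in Fzd4 was not tested. Fzd3 had 1388, 1316 and 929.5 against 1232 and 1195 (0.0025 ± 0.30) and Fzd8 557, 381 and 275 against 261 and 635 (0.15 ± 0.54). Fzd10, the lowest receptor by TPM, had 30.8, 4.74 and 37.9 against 16.6 and 11.1 (-0.80 ± 0.91). Its value ran from -1.29 to -0.35 as libraries were left out in turn.

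Among the antagonists, Sfrp1 (ENSMUSG00000031548, chr8:23411502-23449632, + strand), an epithelial antagonist of Wnts, had the smallest p of the 27 tested members. It had 2926, 4327 and 2178 normalized counts in controls 1, 2 and 3, and the DMHCA samples had 4220.2 and 16836. DMHCA library 2 held more than 3 times any other sample, while the other DMHCA sample lay just under control 2. The fitted log2 fold change was 1.74 ± 0.59, with an unadjusted p = 0.022 and an adjusted p = 0.644 in edgeR. Without DMHCA library 2 it was 0.46 (unadjusted p = 0.35, edgeR), and without control 1 or control 3 the unadjusted p was 0.0598 or 0.0513 in edgeR. In TPM the means were 16.9 ± 3.87 (SD, n = 3) in the controls and 68.4 ± 60.8 (SD, n = 2) in the DMHCA samples, each control lay below both DMHCA samples, and Sfrp1 made up 92.7% of the Sfrp sum in DMHCA library 2 and 25.7% in control 3.

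Sfrp5 (ENSMUSG00000018822, chr19:42197971-42202252, - strand), known as an antagonist of Wnt5a that fat tissue secretes, was low, with 35.6, 19 and 30.3 normalized counts in controls 1, 2 and 3, and the DMHCA samples had 10.0 and 3.04. Each control lay above both DMHCA samples, and the log2 fold change was -2.04 ± 0.76 with an unadjusted p = 0.033 and an adjusted p = 0.644 in edgeR. Without DMHCA library 2 or control 1 the unadjusted p was 0.19 or 0.0837 in edgeR, with log2 fold changes of -1.45 and -1.85. The adipocyte markers Adipoq, Plin1, Cidec, Fabp4 and Lep also had lower summed levels, at 203, 123 and 914 TPM in the controls and 68.6 to 68.8 in the DMHCA libraries. All 5 had an unadjusted p under 0.05 in edgeR and no overlap between groups, against 4.08% and 12.2% of all genes tested in that direction, and their part in the level of Sfrp5 was not tested.

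Sfrp2 and Sfrp4, antagonists made by fibroblasts, were highest in control 3 and lowest in DMHCA library 2. Sfrp2 had 921, 641 and 1700.0 against 1216 and 457 normalized counts (-0.38 ± 0.58), and Sfrp4 276, 209 and 743 against 407 and 95.2 (-0.70 ± 0.82). Without DMHCA library 2 or without control 3 both values were above 0: 0.21 and 0.10 for Sfrp2, and 0.041 and 0.051 for Sfrp4. The 8 fibroblast markers, collagens and Dcn among them, summed to 793, 336 and 1305 TPM in the controls and 652 to 687 in the DMHCA libraries. Gm26771 overlaps Sfrp2 on the opposite strand.

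Dkk2 (ENSMUSG00000028031, chr3:132085292-132180304, + strand), which can block or weakly activate Lrp6, had 200.3, 121 and 274 normalized counts in controls 1, 2 and 3, and the DMHCA samples had 96.4 and 111, and the lowest control lay just above the DMHCA samples. Its log2 fold change was -0.93 ± 0.55 (adjusted p = 0.672 in edgeR), and in TPM the groups overlapped, with 1.48, 0.66 and 1.88 TPM in the controls and 0.67, 0.88 and 0.71 in DMHCA libraries 1, 2 and 3. Dkk3 (ENSMUSG00000030772, chr7:112116017-112159057, - strand), a divergent family member that does not bind Lrp6, was the most abundant Dickkopf gene. It had 805, 427 and 998 normalized counts in controls 1, 2 and 3, and the DMHCA samples had 481 and 245, with control 2 below the higher DMHCA sample, and a log2 fold change of -1.03 ± 0.53 that was -0.59 without DMHCA library 2. Dkk2 and Dkk3 were both highest in control 3.

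**Figure D3:**
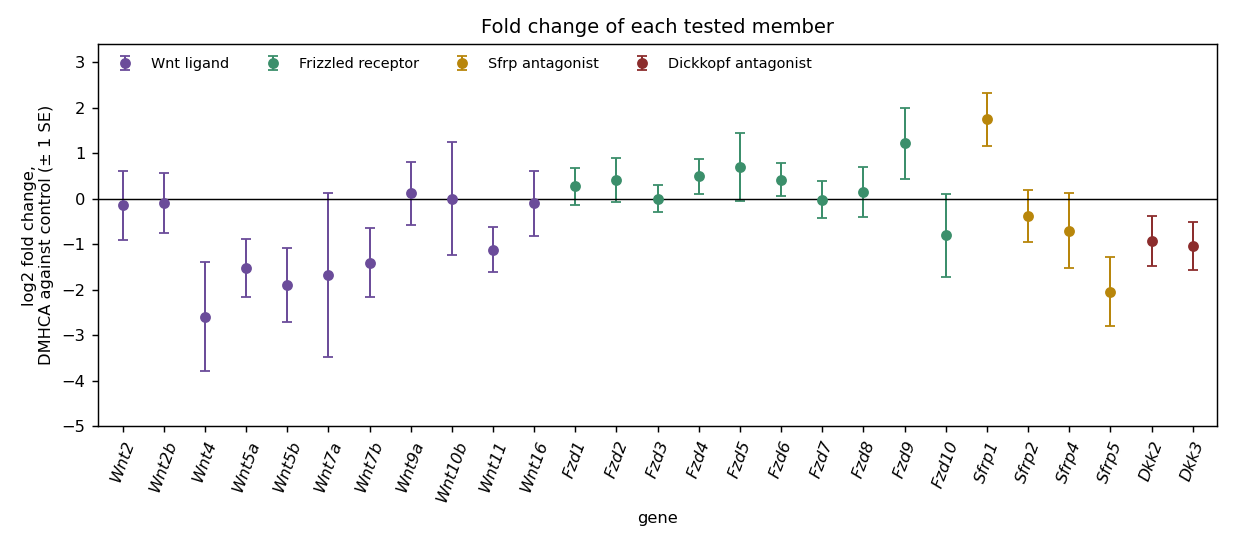
Points are log2 fold changes of DMHCA against control for the 27 tested genes, with bars of 1 standard error from edgeR's quasi-likelihood fit, coloured by family. Of 11 Wnt ligands 9 lie below 0 and 8 of 10 Frizzled receptors above it. Sfrp1 is highest (1.74) and Wnt4 lowest (-2.59), and all adjusted p were 0.644 or above.

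The other genes of the pathway were taken from a list of 67, of which 60 were tested. By edgeR at an unadjusted p under 0.05, 2 were lower, Ror2 and Tcf7l2, and 2 higher, Gsk3a and Csnk1e, which is 3.3% of the list in each direction against 4.08% and 3.53% of all genes. With an adjusted p under 0.05 there were 0. The median log2 fold change of the list was 0.02, and 3 genes lay lower and 10 higher without overlap (5.0% and 16.7%, against 12.2% and 13.8%).

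Ror2, a receptor for Wnt5a, had 501, 1566 and 131 normalized counts in controls 1, 2 and 3, and the DMHCA samples had 65.3 and 141. Control 2 was 3 times above any other sample, and the value of -2.83 ± 1.07 was -1.62 without it, with an unadjusted p = 0.102 against 0.035 with all samples (edgeR). Wnt5a was highest in control 1 and Ror2 in control 2, and controls 1 and 2 were above control 3 for both. Its relative Ror1 had 141, 75.9 and 333 against 251 and 152 (0.14 ± 0.71). By TPM the coreceptors Lrp5 and Lrp6 were more abundant than Ror2, at 33.6 to 90.1 and 23.1 to 55.9 TPM over the 6 libraries against 0.44 to 8.47. Lrp5 had 11447, 7261 and 5656 against 12530.1 and 14378 normalized counts, with both DMHCA samples above each control (0.73 ± 0.36). Lrp6 had 11529, 7532 and 6306 against 8771 and 12261 (0.31 ± 0.35). Its value ran from 0.09 without DMHCA library 2 to 0.59 without control 1. Porcn, which puts the lipid on Wnts, and Wls, which carries them to the cell surface, had log2 fold changes of -0.05 ± 0.44 and -0.028 ± 0.46, and Notum, which removes the lipid, was too low to be tested.

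Inside the cell, the kinases Gsk3a and Csnk1e had higher counts in both DMHCA samples than in each control. Gsk3a, which marks β-catenin for degradation, had 4089, 2016 and 3058 against 6519 and 4973 (0.91 ± 0.35, unadjusted p = 0.036 in edgeR), and Csnk1e, which phosphorylates Dishevelled, had 4017, 3946 and 2928 against 6851 and 5097 (0.72 ± 0.28, unadjusted p = 0.037 in edgeR). Without control 3 these p were 0.0682 and 0.104 in edgeR. The β-catenin gene Ctnnb1 had 53703, 80741 and 28404 against 43374 and 42016 (-0.35 ± 0.48). Tcf7l2, a partner of β-catenin on DNA, had 1999.7, 1549 and 3219 against 1175 and 1251 (-0.89 ± 0.37), with both DMHCA samples below each control. Without control 3 its log2 fold change was -0.55, with an unadjusted p of 0.125 in edgeR against 0.047 with all samples.

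Of 11 tested genes that are commonly read as targets of β-catenin, 8 had a negative log2 fold change, with a median of -0.90. At an unadjusted p under 0.05 in edgeR, 0 passed. Of all genes tested, 52.0% were negative and 4.08% were lower at that level, and their median was -0.03. The full list of 13, which also holds Ccnd1 and Myc, summed to 316, 192 and 128 TPM in controls 1, 2 and 3. In DMHCA libraries 1, 2 and 3 the sum was 247, 306 and 250 TPM, within the range of the controls. Axin2 had 103, 19.9 and 222 against 26.6 and 23.3 normalized counts (-2.20 ± 1.01), Lef1 622, 50.3 and 873 against 129.6 and 156 (-1.85 ± 1.07) and Tcf7 401, 73.1 and 1722 against 71.8 and 196 (-2.45 ± 1.27). In these 3 genes control 3 was highest and control 2 was close to the DMHCA samples or below, the same order of controls as in Wnt4. Without control 3 their values were -1.30, -1.24 and -0.83, with an unadjusted p of 0.175, 0.272 and 0.39 in edgeR. Without control 2 they were -2.70, -2.39 and -2.99, with an unadjusted p of 0.00751, 0.00242 and 0.0183 in edgeR, where 6.48% of all genes were lower at an unadjusted p under 0.05. Nkd2 had the opposite order, 4213, 7218 and 752 against 634 and 1835 (-1.72 ± 0.93), with control 2 highest. Its value had an unadjusted p = 0.109 with all samples in edgeR. It was -1.01 without control 2 (unadjusted p = 0.305, edgeR), -2.64 without DMHCA library 2 (unadjusted p = 0.0835, edgeR) and -2.22 without control 3 (unadjusted p = 0.00669, edgeR), where 3.27% of all genes were lower at an unadjusted p under 0.05. Lef1, Tcf7 and Nkd2 were also on the study's own list of lower genes from these libraries. Of the pathway genes described, Ctnnb1, Axin2, Lef1, Gsk3a and Csnk1e have exons that overlap a gene on the opposite strand.

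Lef1 and Tcf7 are also expressed by T cells, and control 3 was the library with the most T cell transcripts. The T cell markers Cd3d, Cd3e, Cd3g, Cd4 and Cd8a summed to 15.7, 1.35 and 143 TPM in the controls and 3.93 to 7.43 in the DMHCA libraries. The part of these cells in Lef1 and Tcf7 was not tested. Among the other targets, Rnf43 and Znrf3, which remove Frizzled receptors from the cell surface, went the other way, with 2649.6, 1952 and 1700.0 against 3675 and 2832 (0.63 ± 0.29) and 867, 697 and 452 against 854 and 1018 (0.48 ± 0.38). For Rnf43 both DMHCA samples lay above each control. Nkd1 had 182, 141 and 88.7 against 83.9 and 180.2 (-0.06 ± 0.59) and the stem cell receptor Lgr5 78, 13.3 and 68.2 against 37.2 and 19.2 (-0.90 ± 0.85).

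Of the other inhibitors, Wif1, which binds Wnts, had 38.5, 8.54 and 240.2 against 18.6 and 8.1 (-2.81 ± 1.41) and was highest in control 3, with -0.79 without that sample. Frzb, a relative of the Sfrp genes, had 57.8, 31.3 and 33.5 against 20.1 and 71.9 (0.16 ± 0.71).

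**Figure D4:**
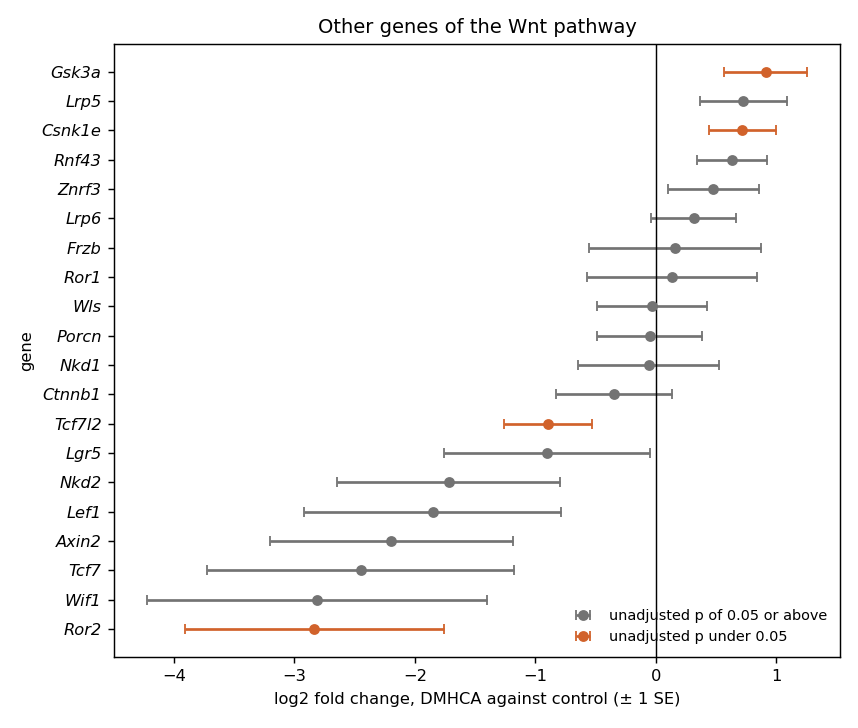
Points are log2 fold changes of DMHCA against control, with bars of 1 standard error from edgeR's quasi-likelihood fit, for the 20 named genes of the Wnt pathway list, ordered by value. The 4 orange genes, Ror2, Tcf7l2, Csnk1e and Gsk3a, had an unadjusted p under 0.05, and no gene had an adjusted p under 0.05.

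The libraries also differed in the summed levels of marker genes, and whether these differences came from the treatment was not tested. Milk protein transcripts ran from 12185 TPM in DMHCA library 2 to 44196 in control 3, and skeletal muscle markers from 227 in DMHCA library 2 to 954 in control 2. The proliferation markers Mki67, Top2a, Ccnb1 and Cdk1 summed to 224, 291 and 129 TPM in the controls and 346 to 423 in the DMHCA libraries. Basal and myoepithelial markers summed to 63.7, 32.6 and 125 TPM in the controls and 47.6 to 62.6 in the DMHCA libraries, macrophage markers to 88.3, 71.4 and 147 TPM in the controls and 96.4 to 114 in the DMHCA libraries, and skin and hair follicle markers to 8.15, 4.42 and 9.86 TPM in the controls and 6.03 to 9.6 in the DMHCA libraries, with Krt25 and Flg too low to be tested. The luminal markers summed to 3591, 3278 and 2930.3 TPM in the controls and 4063 to 4422 in the DMHCA libraries. Of the 27 tested members, 11 were highest in control 3 and 7 in control 1, while 8 were lowest in control 3, 8 in DMHCA library 2 and 6 in control 2.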

How the data were processed

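RNA from 3 control and 3 DMHCA samples was measured by RNA-seq. The authors trimmed adapters (Cutadapt 2.9), checked reads (FastQC 0.11.9) and counted them with RSEM 1.3.1 on a Bowtie2 2.4.1 index of the Ensembl mouse genome (mm10, GRCm38), and used DESeq2 1.26 in R 3.6. The authors deposited RSEM's expected counts, which are not normalized. TPM and FPKM were also deposited, scaled by the authors' RSEM run for gene length and depth, and FPKM was not used here. Reads shared by similar genes had been divided among them by RSEM, and this could not be changed.

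Expected counts were rounded. DMHCA libraries 1 and 3 were summed. The main comparison used edgeR 4.0.16 under R 4.3.3 (TMM, filterByExpr at its minimum count, 10, and total, 15, quasi-likelihood F-test, Benjamini-Hochberg over 19427 genes). The standard error is the log2 fold change divided by the root of F. Alternatives used DESeq2 1.42.0, limma 3.58.1 on log2(TPM + 0.1) and log2(TPM + 1), other filters, another scaling, a replicate block, and each library left out. The edgeR fit of the main comparison was run on simulated data, and the alternatives were not. Its power on these data is not given here. Per-sample values are given for members with an unadjusted p under 0.05, a group mean of at least 300 normalized counts, or a place in the study's list of changed genes, and briefly for the other tested members. Pathway genes are named if fixed by name or with an unadjusted p under 0.05. Wnt10a, Wnt9b and the pairs of neighbouring Wnt genes were picked out after values were seen. The members and lists were chosen with earlier results of these data known. Coordinates are from GENCODE M21 (GRCm38) and promoter sequences from RefSeq (GRCm38.p6). Tables and plots used Python 3.11.15, pandas 2.3.3, numpy 2.4.6 and matplotlib 3.10.9. Protein sequences were not used here, and 1 marker list is not reported here.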

Additional observations from a re-analysis of the deposited data

How the results depend on the processing

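The counts rest on 2 DMHCA samples and 3 controls, and at the 27 members tested in the reported fit a share of 1 gene is large. Members with an adjusted p under 0.05 numbered 0 in the reported fit and 2 (Wnt4, Wnt10a) in DESeq2 with 6 libraries as separate samples, which treats the near-alike DMHCA libraries 1 and 3 as independent. In that fit Wnt4 had a log2 fold change of -2.52 (adjusted p = 0.0464, DESeq2), and the pathway genes Ror2 (-3.03) and Tcf7 (-2.66) also passed. The adjusted p of Wnt4 ran from 0.0464 to 0.959 over its alternatives. In the other alternatives the count was 0.

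Lower members at an unadjusted p under 0.05 numbered 1 in the reported fit, 6 in DESeq2 on 5 samples, 8 in DESeq2 on 6 libraries, 7 in edgeR on 6 libraries, 5 with the replicate block, 6 without a filter on low counts and 0 in limma on log2(TPM + 1), and 0 to 5 with each library left out. Their background over all genes was 4.35%, 6.21%, 8.03%, 8.08%, 5.1% and 1.72% in those settings, and 1.48% to 6.48% with libraries left out. The settings did not all test the same members. Both DESeq2 fits (35367 and 35263 genes) and the fit without a filter (35390 genes) also took in low-count genes, such as Wnt10a in DESeq2. Wnt7a was not tested in either edgeR fit on the 6 libraries. The number of members or pathway genes tested in each setting is not given here, so these counts cannot be read as shares against the background. The members lower in DESeq2 on 5 samples were Sfrp5, Wnt10a, Wnt11, Wnt4, Wnt5a and Wnt5b. Higher members numbered 1 in the reported fit, 0 in edgeR on 6 libraries, 3 with the replicate block (Fzd4, Fzd9 and Sfrp1), 2 without a filter, and 0 to 1 with libraries left out, at a background of 7.56%, 9.1%, 2.84% and 2.16% to 3.34% of all genes. Lower genes of the pathway list numbered 2, and 6 in DESeq2 on 5 samples, 10 in DESeq2 on 6 libraries, 7 in edgeR on 6 libraries, 6 with the replicate block, 1 with library totals, 10 without a filter, 0 in both limma fits, and 1 to 9 with libraries left out. Higher genes of that list numbered 2, and 1, 4, 4, 4 and 1 in the same first 5 settings, 4 in both limma fits, and 0 to 3 with libraries left out, where 2.35%, 4.14%, 7.56%, 9.1% and 3.37% of all genes were higher in those 5 settings and 5.44% and 5.57% in the limma fits. The causes of these differences were not tested. A replicate number joins a control library and a treated library. The deviations of same-numbered libraries correlated at -0.0468, 0.316 and 0.330, and those of differently numbered libraries at -0.363 to 0.319. Because DMHCA libraries 1 and 3 are nearly alike, these correlations cannot show whether the samples were paired.

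Tested Wnt ligands with a negative value numbered 9 of 11, with 7 to 11 as libraries were left out and 6 to 10 over the other settings, some of which tested fewer ligands. Positive Frizzled values numbered 8 of 10, with 6 to 9 over the other settings and 4 to 9 as libraries were left out, 4 of them without DMHCA library 2. These 2 counts were added after seeing the data. The median over the genes tested in each setting differed from that of the reported fit by -0.17 on the log2 scale in both DESeq2 fits. It differed by 0.19 and 0.14 in the limma fits and by -0.15 without a filter. The reported fit and the limma fits tested 19427 genes, the DESeq2 fits 35367 and 35263, and the fit without a filter 35390. The differences in DESeq2 and without a filter are therefore between different sets of genes, and do not show that values of the same genes moved. Of 836 comparisons of a named gene's log2 fold change with its value in an alternative, 67, in 19 genes, changed sign, none of them with an adjusted p under 0.05. With DESeq2 on the 6 libraries they were 0.083 for Wnt2, -0.065 for Fzd8 and -0.12 for Frzb. With edgeR on the 6 libraries they were 0.044 for Wnt2, -0.0049 for Fzd3, -0.083 for Fzd8 and -0.14 for Frzb. With the replicate block on the 6 libraries they were 0.082 for Wnt2, 0.013 for Wnt2b, -0.16 for Wnt10b, 0.054 for Wnt16, -0.16 for Fzd8 and -0.37 for Frzb. With limma on log2(TPM + 0.1) they were 0.044 for Wnt2, 0.12 for Wnt2b, -0.26 for Wnt10b, 0.21 for Wnt16, 0.21 for Fzd7, 0.039 for Porcn, 0.13 for Wls and 0.19 for Nkd1. With limma on log2(TPM + 1) they were 0.0078 for Wnt2, 0.013 for Wnt2b, 0.039 for Wnt16, 0.20 for Fzd7, 0.033 for Porcn, 0.13 for Wls and 0.13 for Nkd1. With library totals in place of TMM they were -0.055 for Wnt10b and 0.0022 for Wls. With DMHCA libraries 1 and 3 averaged they were -0.018 for Wnt10b and -0.00087 for Fzd3. With the size factors of DESeq2 in edgeR it was -0.0015 for Fzd3. With a filter of 1 CPM in 2 samples it was -0.041 for Fzd3. With each library left out in turn the ranges were -0.44 to 0.53 for Wnt2, -0.39 to 0.46 for Wnt2b, -0.21 to 0.74 for Wnt9a, -0.42 to 1.01 for Wnt10b, -0.40 to 0.58 for Wnt16, -0.27 to 0.51 for Fzd1, -0.17 to 0.60 for Fzd2, -0.16 to 0.11 for Fzd3, -0.57 to 0.97 for Fzd5, -0.38 to 0.15 for Fzd7, -0.60 to 0.44 for Fzd8, -0.65 to 0.21 for Sfrp2, -1.02 to 0.051 for Sfrp4, -0.17 to 0.12 for Porcn, -0.75 to 0.22 for Wls, -0.24 to 0.89 for Ror1, -0.98 to 0.47 for Frzb, -0.66 to 0.056 for Ctnnb1 and -0.67 to 0.18 for Nkd1. Without DMHCA library 2, the values of Wnt7a (-3.37), Wnt7b (-2.21), Ror2 (-3.45) and Tcf7 (-3.29) were lower than with all samples.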
